A study of Mus musculus with 6 samples.

Results

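Milk fat and fatty acid synthesis genes are described here in CD45- tumor cells labelled RANK+/+ or RANK-/-. The group holds 10 genes, Acly, Acaca, Fasn, Thrsp, Elovl6, Scd1, Scd2, Srebf1, Plin2 and Xdh, of 22489 genes and unnamed transcripts tested. They were chosen by name, and their gene probes were found through the RefSeq accession that the array files give for each probe. This gave 13 probes, all of which passed the filter on dim probes: 3 for Acaca, 2 for Acly and 1 for each of the other genes. A gene with several probes was represented by its brightest probe. With that probe, each of the 10 genes was well above background on all 6 arrays, in either channel.

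The cells came from MMTV-PyMT mammary carcinomas, in which a mammary tumor virus promoter drives the polyoma middle T oncogene in mammary epithelium. All donors carried this transgene on a C57BL/6 background, and either had both copies of Tnfrsf11a, the gene for RANK (RANK+/+), or lacked it (RANK-/-). Late carcinoma cells of each genotype were grown in the mammary gland of young syngeneic C57BL/6 females, for which no RANK deletion or treatment is named. The grown tumors were dissociated and live CD45- cells were sorted, so that host stromal cells without CD45 could pass the same sort. Each 2-color array compared 1 RNA of each genotype, and 6 arrays covered 3 pairs of RNAs with 2 technical arrays (A and B) per pair. The RNA labelled RANK-/- was in Cy5 in pair 1 and in Cy3 in pairs 2 and 3, so dye arrangement and pair 1 cannot be told apart. No label ties the 3 RNAs of a genotype to separate tumors, so p-values measure only the spread between these samples.

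Values are log2 ratios of the channel labelled RANK-/- over the channel labelled RANK+/+, with arrays A and B averaged and n = 3 pairs, and levels are normalized log2 signals of 1 probe in 1 channel. The labels were checked on Tnfrsf11a itself. Its log2 ratio was 2.03 in pair 1, 1.15 in pair 2 and 1.76 in pair 3, a higher signal in every channel labelled RANK-/- (mean 1.65 ± 0.45, SD, n = 3). This goes against the label, and neither the deleted exons nor the position of the probe is given in the sources used here. All directions below therefore name the channel as it was labelled. Each array had between 51.9% and 58.8% of its 55681 gene probes well above background in a given channel, and no spot was saturated. Across genes, r was 0.973 to 0.983 between arrays A and B, and -0.279 to 0.178 between pairs.

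Fatty acids are built from cytosolic acetyl-CoA, which ATP citrate lyase (Acly) makes, acetyl-CoA carboxylase (Acaca) turns into malonyl-CoA and fatty acid synthase (Fasn) assembles into palmitate. Elongases and desaturases modify the product before it enters triglycerides, and SREBP-1, the product of Srebf1, is a transcription factor known to drive many of these enzymes. In the lactating mammary gland this pathway runs at a high rate, and the fat leaves the luminal cell as droplets coated by proteins such as perilipin 2 and xanthine oxidoreductase.

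Start-site sequence was available for 7 of the 10 genes in RefSeq (GRCm38.p6), in 9 windows of 250 bases before a start, Srebf1 having 3. Shown here are 1 gene higher in all pairs (Fasn), 1 that ran the other way in pairs 1 and 3 (Thrsp), and 2 that shared a sign pattern (Elovl6 and Srebf1, the latter at its most upstream start). The windows are chr11:120824548-120824797 (minus strand, Fasn), chr7:97417551-97417800 (minus, Thrsp), chr3:129532136-129532385 (plus, Elovl6) and chr11:60222582-60222831 (minus, Srebf1). Each is printed in the direction of transcription, and capitals mark CCAAT or its complement ATTGG.
Fasn: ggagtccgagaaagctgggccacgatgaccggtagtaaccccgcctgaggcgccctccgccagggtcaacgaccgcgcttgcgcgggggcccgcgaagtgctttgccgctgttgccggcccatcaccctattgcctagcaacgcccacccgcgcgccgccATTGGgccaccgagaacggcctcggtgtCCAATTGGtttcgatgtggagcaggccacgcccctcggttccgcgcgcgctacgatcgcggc
Thrsp: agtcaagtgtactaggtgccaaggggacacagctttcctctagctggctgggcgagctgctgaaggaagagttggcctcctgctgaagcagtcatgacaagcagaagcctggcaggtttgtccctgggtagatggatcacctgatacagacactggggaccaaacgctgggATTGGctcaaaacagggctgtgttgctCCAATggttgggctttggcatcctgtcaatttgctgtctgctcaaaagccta
Elovl6: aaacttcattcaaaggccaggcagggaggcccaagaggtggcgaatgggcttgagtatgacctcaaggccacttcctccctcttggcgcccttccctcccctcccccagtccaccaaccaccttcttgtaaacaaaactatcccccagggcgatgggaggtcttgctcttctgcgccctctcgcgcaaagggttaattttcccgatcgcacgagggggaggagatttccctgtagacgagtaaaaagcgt
Srebf1: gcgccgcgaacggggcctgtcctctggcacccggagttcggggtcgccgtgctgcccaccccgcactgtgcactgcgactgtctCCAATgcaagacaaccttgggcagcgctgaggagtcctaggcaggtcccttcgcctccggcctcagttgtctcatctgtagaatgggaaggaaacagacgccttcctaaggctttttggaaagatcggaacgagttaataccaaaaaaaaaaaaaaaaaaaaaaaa

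On both strands, 5 motifs were searched. CCAAT, the box bound by NF-Y, had 3 matches before Fasn (2 of them overlapping), 2 before Thrsp and 1 before Srebf1 in the windows shown, and none before Elovl6. In the windows not shown it had 1 match before Plin2 and 1 before the most downstream Srebf1 start. Acly, Acaca and the remaining Srebf1 start had none. Of all 32851 RefSeq windows of this length, 33.8% hold at least 1. GGGCGG, a GC box, occurs in 32.7% of all windows. It had no match in the 4 windows shown, and 4 before Acly and 2 before each of the other Srebf1 starts. The sterol regulatory element in the form TCACNCCAC (1.05% of all windows), the E-box CACGTG (6.02%) and the Stat5 motif TTCNNNGAA (7.02%) had no match in any of the 9 windows. A match needed these exact letters, with N any base, so variant sites and sites outside the windows were not sought. These genes can therefore not be said to lack such elements. The genes with CCAAT had mean log2 ratios of 0.44 (Fasn), -0.20 (Thrsp), 0.62 (Srebf1) and 0.08 (Plin2). A link between motif and ratio was not tested.

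None of the 10 genes differed between the labelled genotypes by the tests used. By limma 0 of 10 passed an adjusted p of 0.05, against 0 of all 22489 genes (0%), and 1 of 10 had an unadjusted p under 0.05, against 647 of all genes (2.88%), 373 of them (1.66%) higher in the channel labelled RANK-/- as that gene, Fasn, was. The rank product, which orders genes by their ratio in each pair, called 0 of 10 at a proportion of false positives (pfp) under 0.05, against 7 of all genes (0.0311%), 4 higher (0.0178%) and 3 lower (0.0133%). The smallest pfp of the group was 0.626, for Scd1. The levels of the 2 labelled genotypes overlapped over the 3 RNAs each for all 10 genes, whereas 7.46% of all genes had levels that did not overlap. With 3 pairs, an exact sign-flip test cannot give a two-sided p under 0.25.

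The median SD between pairs was 0.46 for the 10 genes, beside 0.33 for all genes, and the median technical SD between arrays A and B was 0.04, beside 0.06. Arrays A and B had the same sign in all 30 gene and pair values. The median log2 ratio of the group was 0.08, -0.05 and 0.58 in pairs 1, 2 and 3, where all genes had medians of 0.02, -0.01 and 0.00. The median of the 10 gene means was 0.23, beside 0.00 for all genes.

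**Figure D1:**
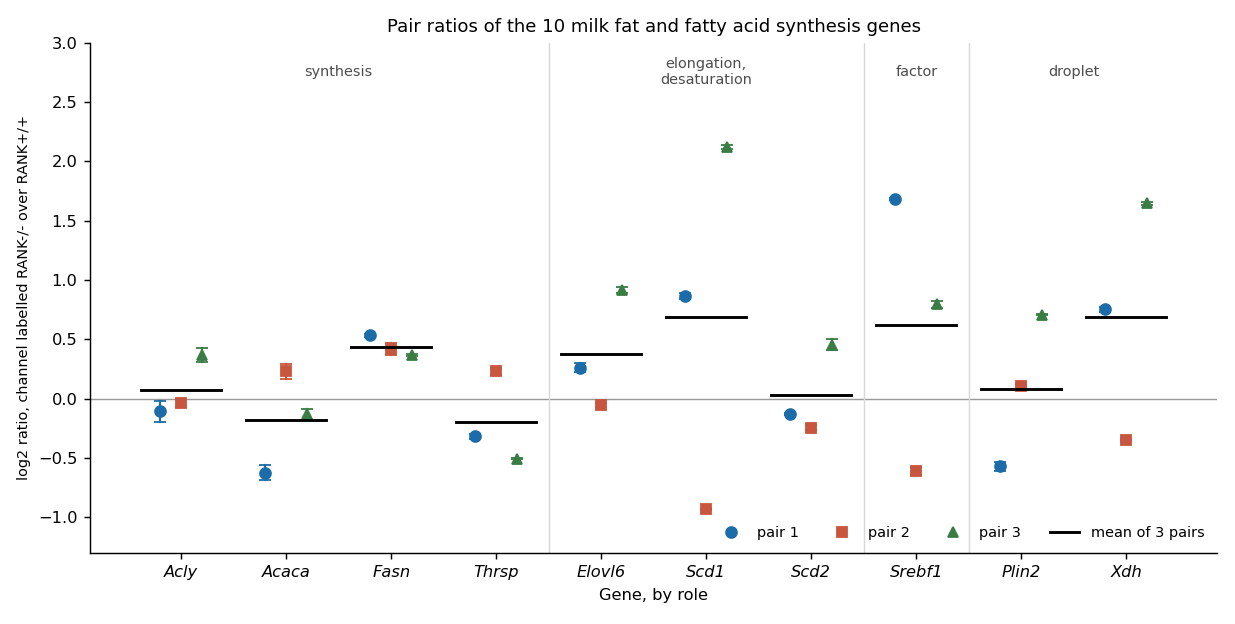
Log2 ratio of the channel labelled RANK-/- over that labelled RANK+/+ for each gene, by role. Symbols give the mean of arrays A and B in each of 3 pairs, short bars the 2 arrays, and black lines the mean of the pairs. Fasn lies above 0 in all 3 pairs, and Elovl6, Scd1, Srebf1 and Xdh lie above 0 in pairs 1 and 3 and below 0 in pair 2.

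The enzymes and the cofactor of fatty acid synthesis did not move as a block. Fasn had levels of 9.06, 8.94 and 8.49 in the RNAs labelled RANK-/- and of 8.53, 8.52 and 8.13 in those labelled RANK+/+ (pairs 1, 2 and 3). It was thus higher in the channel labelled RANK-/- within each pair, while the level labelled RANK-/- of pair 3 lay below 2 of the 3 levels labelled RANK+/+. The log2 ratios were 0.53, 0.42 and 0.37, with a mean of 0.44 ± 0.09 (SD, n = 3; 95% interval 0.07 to 0.81), which is 1.36-fold. The limma p was 0.0305 before and 1.00 after adjustment over all genes. Fasn was the 1 gene of 10 with the same sign in all 3 pairs, where 19.6% of all genes had the same sign. Its raw median signals were low, at 246 to 585 over the 12 channel readings. Before dye normalization the reading labelled RANK-/- was the lower one on the arrays of pairs 2 and 3, where it was in Cy3. With each array only centred on its median in place of loess, pair 3 was at -0.09 and the mean at 0.28.

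Acly, which supplies the acetyl-CoA, had levels of 13.68, 13.87 and 14.05 labelled RANK-/- and 13.78, 13.91 and 13.68 labelled RANK+/+. The 6 levels lay close together, and the log2 ratios of -0.11, -0.04 and 0.37 averaged 0.07 ± 0.26 (95% interval -0.38 to 0.53). A second Acly probe gave -0.34, 0.17 and 0.29 (mean 0.04 ± 0.33), and so differed from the first in the sign of pair 2. Acaca, the carboxylase, had levels of 11.62, 11.66 and 11.66 labelled RANK-/-, nearly equal, and of 12.24, 11.44 and 11.79 labelled RANK+/+. Its log2 ratios were -0.62, 0.23 and -0.13 (mean -0.18 ± 0.43). With this probe the levels spread over 0.05 log2 units labelled RANK-/- and 0.81 labelled RANK+/+. The other 2 Acaca probes averaged -0.14 ± 0.49 and -0.05 ± 0.27, and both differed from the first in the sign of pair 3 (0.18 and 0.12). Thrsp, which encodes Spot 14, a promoter of fatty acid synthesis in the lactating gland, had levels of 13.83, 13.73 and 13.30 labelled RANK-/- and 14.15, 13.50 and 13.80 labelled RANK+/+. Its log2 ratios were -0.32, 0.23 and -0.51 (mean -0.20 ± 0.38). Thrsp and Acaca were the 2 genes of 10 that were lower in pairs 1 and 3 and higher in pair 2, as were 17% of all genes. Of the settings that gave other pair values, Thrsp kept these signs in 7 of 8 and Acaca in 7 of 9.

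**Figure D2:**
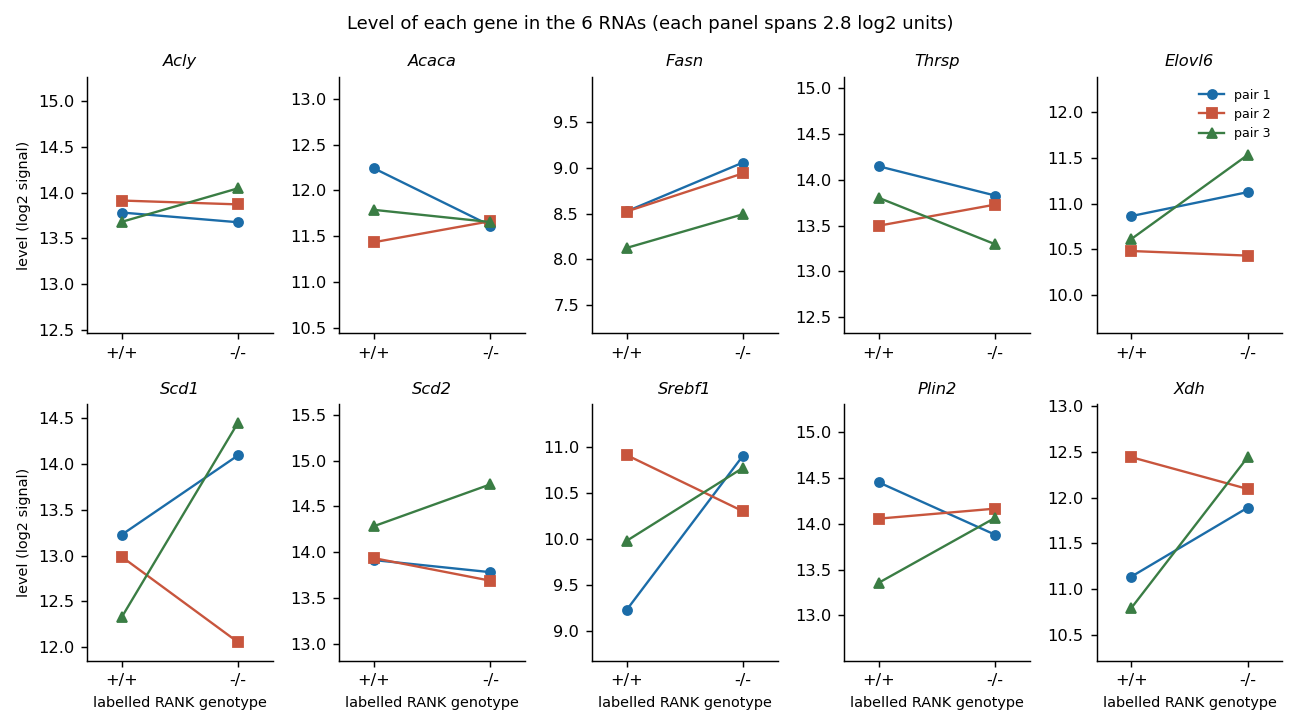
Normalized log2 signal of each gene in the 6 RNAs, by labelled RANK genotype, with a line joining the 2 RNAs of a pair. Every panel spans 2.8 log2 units; the steepest lines are those of Scd1 in pair 3 and Srebf1 in pair 1, and the lines of Scd1, Srebf1 and Xdh slope down in pair 2.

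Elongation and desaturation held the most variable gene. Scd1, the stearoyl-CoA desaturase that makes oleate, had levels of 14.09, 12.06 and 14.45 in the RNAs labelled RANK-/- and of 13.23, 12.99 and 12.33 in those labelled RANK+/+. The RNA labelled RANK-/- of pair 2 was the lowest of the 6 and the other RNAs with this label were the highest. The log2 ratios were 0.87, -0.93 and 2.12, with a mean of 0.68 ± 1.53 (95% interval -0.98 to 2.35), and the ratio of pair 3 was exceeded in size by 0.769% of all genes in that pair. Without pair 3 the mean was -0.03, and without pair 2 it was 1.49. Its paralog Scd2 had levels of 13.78, 13.69 and 14.74 labelled RANK-/- and 13.91, 13.93 and 14.28 labelled RANK+/+. Scd2 was highest in both RNAs of pair 3, whatever the label. The log2 ratios were -0.13, -0.25 and 0.46 (mean 0.03 ± 0.38). The ratio of Scd1 exceeded that of Scd2 by 1.00 in pair 1 and 1.67 in pair 3 and was below it in pair 2 (difference -0.69), a mean difference of 0.66 ± 1.21. Elovl6, which elongates palmitate to stearate, had levels of 11.13, 10.43 and 11.53 labelled RANK-/- and 10.86, 10.48 and 10.61 labelled RANK+/+. Its log2 ratios of 0.26, -0.05 and 0.92 (mean 0.38 ± 0.49, 95% interval -0.26 to 1.01) had the signs of Scd1 at a smaller size, and the mean was 0.10 without pair 3 and 0.59 without pair 2.

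Srebf1, the lipogenic transcription factor, had levels of 10.91, 10.30 and 10.78 labelled RANK-/- and 9.22, 10.92 and 9.98 labelled RANK+/+. Here the RNAs labelled RANK+/+ spread most, over 1.69 log2 units, against 0.60 for those labelled RANK-/-. The log2 ratios were 1.68, -0.61 and 0.80 (mean 0.62 ± 1.16, 95% interval -0.66 to 1.90), and without pair 1 the mean was 0.09. The probe was not resolved by transcript, so SREBP-1a and SREBP-1c, which start at different sites of this gene, were not told apart. Srebf2, which encodes the factor of cholesterol synthesis, had log2 ratios of 0.24, 0.33 and -0.18. Of the other genes of the group, Scd1, Elovl6 and Xdh had the signs of Srebf1 in all pairs.

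Of the droplet proteins, Xdh had the signs of Scd1 in each pair and Plin2 did not, a difference that was not tested. Xdh, the xanthine oxidoreductase of the milk fat globule, had levels of 11.89, 12.10 and 12.44 labelled RANK-/- and 11.14, 12.44 and 10.80 labelled RANK+/+. The highest levels were those of pair 3 labelled RANK-/- and of pair 2 labelled RANK+/+, at 12.44 each, so that its levels over the 6 RNAs did not follow those of Scd1, which was lowest in the RNA labelled RANK-/- of pair 2. The log2 ratios were 0.75, -0.35 and 1.65 (mean 0.68 ± 1.00, 95% interval -0.44 to 1.80). The mean was 0.203 without pair 3 and 1.199 without pair 2. Plin2, perilipin 2, had levels of 13.88, 14.17 and 14.07 labelled RANK-/- and 14.45, 14.06 and 13.36 labelled RANK+/+. Its log2 ratios were -0.57, 0.11 and 0.71 (mean 0.08 ± 0.64), and Plin2 minus Xdh was -1.32, 0.46 and -0.94 (mean difference -0.60 ± 0.94). Btn1a1, butyrophilin, which binds Xdh at the apical membrane, was at 0.92, -0.58 and -0.20.

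**Figure D3:**
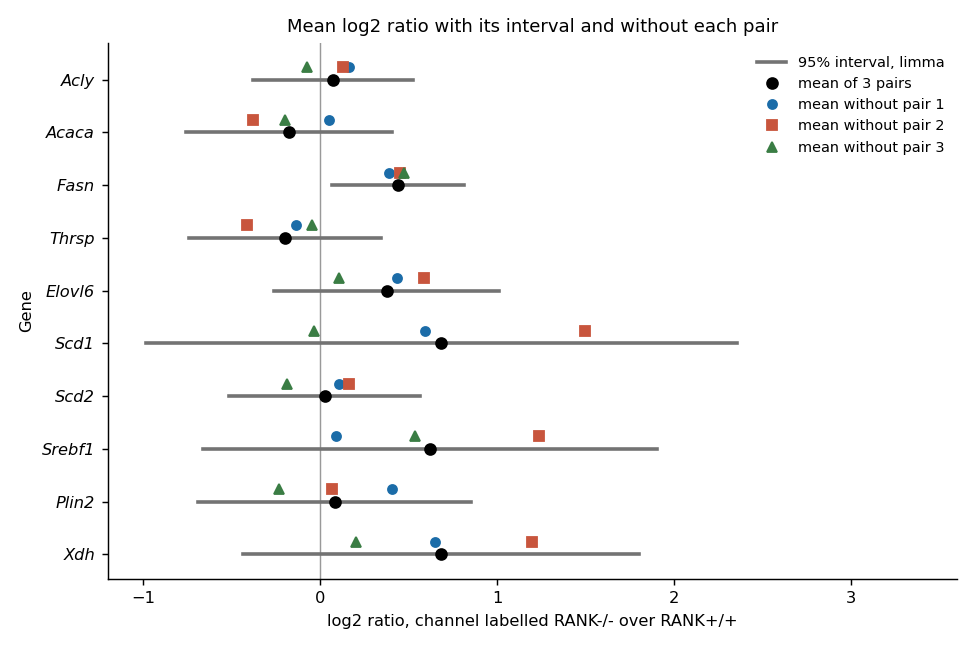
Mean log2 ratio of each gene over the 3 pairs (black) with its 95% interval from limma (grey), and the mean of the remaining pairs when 1 pair was left out (colored symbols). The interval of Fasn runs from 0.07 to 0.81 and all others include 0; the mean of Scd1 runs from -0.03 without pair 3 to 1.49 without pair 2.

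The genes with the 3 widest spreads, Scd1, Srebf1 and Xdh, and the less variable Elovl6 had the same order of signs over the pairs, whereas Plin2, more variable than Elovl6, had another. Elovl6, Scd1, Srebf1 and Xdh, 4 of 10 (40%), were higher in the channel labelled RANK-/- in pairs 1 and 3 and lower in pair 2, as were 18.8% of all genes. Their medians were 0.81, -0.48 and 1.28 in pairs 1, 2 and 3, and those of the other 6 genes were -0.23, 0.17 and 0.37. This sign pattern was seen after the values were known and was not tested. Each of the 4 kept it in all 8 settings that gave it other pair values through the background, normalization or array choice. These settings reuse the same 3 pairs of RNAs, so keeping the signs is no independent evidence for the pattern. Differences of at least 2-fold were those of Srebf1 in pair 1 and of Scd1 and Xdh in pair 3, all higher in the channel labelled RANK-/-. In pairs 1, 2 and 3, 6.5%, 4.82% and 7.92% of all genes were at least 2-fold apart in either direction.

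The wider lipid pathway was given by lists of other genes, in which limma called 0 genes and the rank product 0. Of 10 genes of precursor and NADPH supply, 2 were higher and 1 was lower in all 3 pairs, as were 9.94% and 9.65% of all genes. The 2 were Me1, malic enzyme, which makes NADPH (0.33, 0.0028 and 1.01), and Slc25a1, the mitochondrial citrate carrier (0.69, 0.0039 and 0.15). Of 10 other elongases and desaturases, Scd4 alone had 1 sign (mean 0.12 ± 0.02), and it was well above background on 5 and 1 of the 6 arrays in the channels labelled RANK-/- and RANK+/+. Of 10 genes of triglyceride assembly, Lpin1, a phosphatidate phosphatase, was higher in all 3 pairs (1.44, 0.14 and 1.03, mean 0.87 ± 0.66, adjusted limma p 1.00). Of 8 tested genes of the milk fat globule and droplet coat, Plin3 was (0.73, 0.28 and 0.88, mean 0.63 ± 0.31), while its relative Plin2 was not.

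Fatty acid uptake held the gene with the lowest mean of all listed lipid genes. Fabp3, the fatty acid binding protein of heart and mammary gland, had levels of 7.61, 6.84 and 7.06 labelled RANK-/- and 8.75, 8.47 and 8.05 labelled RANK+/+. These 2 groups did not overlap, as was the case for 7.46% of all genes. The array holds 2 probes for Fabp3, and the values are those of 1 of them. Its log2 ratios of -1.14, -1.63 and -0.99 averaged -1.25 ± 0.33 (95% interval -1.76 to -0.75, adjusted limma p 1.00). Acsl4, an acyl-CoA synthetase, was at 1.13, 0.17 and 0.20. Of the 13 regulators, Stat5a (mean 0.33 ± 0.35) and Mbtps2, the protease that releases SREBP (mean -0.35 ± 0.36), were the largest of those with 1 sign. Of 11 genes of fatty acid oxidation these were Cpt2 (mean -0.29 ± 0.15) and Ppara (mean 0.07 ± 0.08). Of 10 genes of cholesterol synthesis and uptake none had the same sign in all pairs; their median was -0.06, 0.25 and -0.80, lowest in pair 3, where the median of the 10 milk fat and fatty acid synthesis genes was highest.

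**Figure D4:**
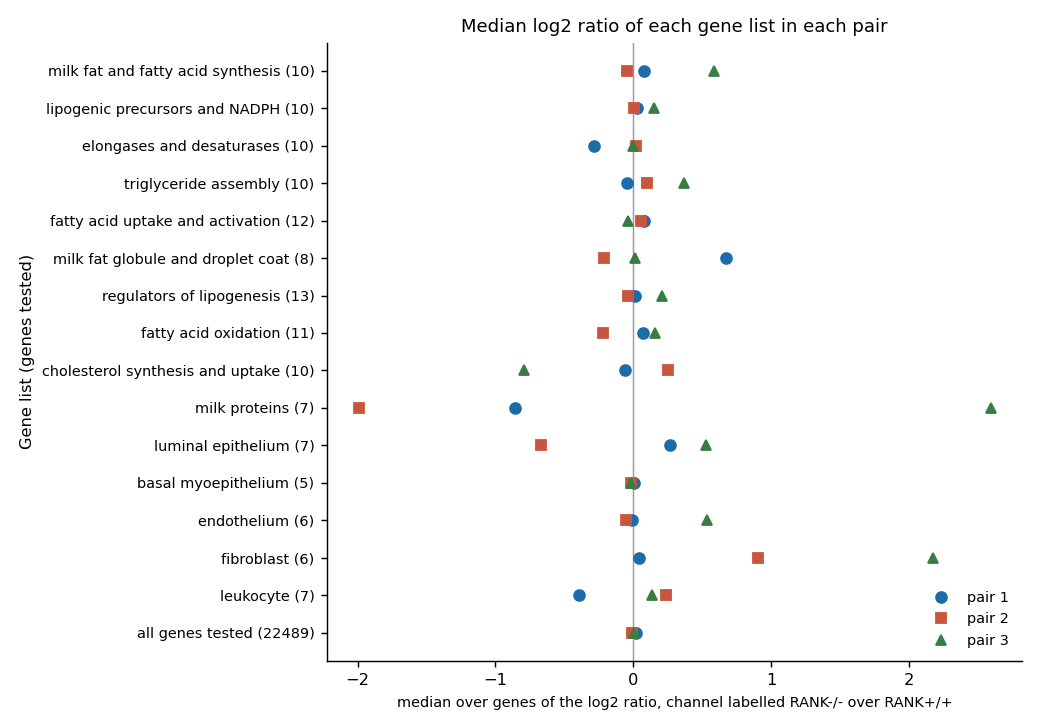
Median over genes of the log2 ratio of the channel labelled RANK-/- over that labelled RANK+/+, for each gene list in each of 3 pairs. The adipocyte list is not drawn, and the number of genes tested stands in parentheses. Milk protein, luminal and fibroblast lists spread more widely between pairs than the lipid lists, and all genes lie at 0.02, -0.01 and 0.00.

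Markers of cell types and of milk secretion varied over the same pairs, and their part in the values above was not tested. In bulk RNA, fewer cells of a type and less RNA per cell cannot be told apart. The summed level of 7 luminal epithelial markers was 18.18, 17.09 and 18.78 labelled RANK-/- and 17.90, 18.12 and 17.46 labelled RANK+/+, highest and lowest in the same RNAs labelled RANK-/- as Scd1. Krt18, the brightest of the 7, weighs most in this sum and had its extremes in the same RNAs (18.09 and 15.99). None of the other markers had both its highest and its lowest level there. The list medians were 0.27, -0.67 and 0.52. Of these 7, 3 (Epcam, Krt18 and Cldn3) had the signs of Scd1 in all pairs, as did 18.8% of all genes. Krt8, Krt19 and Cldn4 were lower in pairs 1 and 2 and higher in pair 3, and Cdh1 was higher in pair 1 only (0.27, -0.47 and -0.15). Among 7 milk protein genes the list medians were -0.86, -1.99 and 2.59. Wap, whey acidic protein, was the 1 listed gene called by the rank product (3.75, 0.71 and 3.82, mean 2.76 ± 1.78, pfp 0.0130). The array holds 2 probes for Wap, and these values are those of 1 of them. Csn3 alone of the 7 had the signs of Scd1 (1.05, -1.99 and 2.59). Csn1s1, Csn1s2a, Lalba and Glycam1 were lower in pairs 1 and 2 and higher in pair 3, and Csn2 was lower in pair 1 only. Of these, Csn2 was well above background on 4 and 3 of 6 arrays in the channels labelled RANK-/- and RANK+/+. Glycam1 was on 4 and 4 and Csn1s2a on 6 and 4, so their signs rest partly on signals near background.

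Fibroblast markers were higher in the channel labelled RANK-/- in pairs 2 and 3, with list medians of 0.04, 0.90 and 2.17 over 6 genes. Their summed level was 17.07 to 17.76 labelled RANK-/- and 15.51 to 17.09 labelled RANK+/+. Col1a2 (mean 1.28 ± 0.96) and Col1a1 (0.97 ± 0.86) were the largest of those with 1 sign. Adipocytes also express these lipid genes, and most of the 8 listed adipocyte markers left little signal. Adipoq, Lep, Plin1 and Cidec were well above background on 0 of 6 arrays in either channel. Pck1 was on 0 and 1 and Retn on 0 and 2 (channels labelled RANK-/- and RANK+/+). The 2 markers that could be tested were Cfd (6 and 4 arrays, levels 6.22 to 6.99) and Adrb3 (5 and 1 arrays, levels 6.11 to 6.61). An adipocyte part in the lipid values was not tested. Of the other lists, the summed levels were 14.38 to 14.57 labelled RANK-/- and 14.55 to 15.36 labelled RANK+/+ for 5 basal markers, 11.63 to 11.86 and 11.32 to 11.72 for 6 endothelial markers, and 10.41 to 11.28 and 9.97 to 11.75 for 7 leukocyte markers. Among the leukocyte markers, Ptprc was well above background on 5 and 4 arrays (channels labelled RANK-/- and RANK+/+). Adgre1 was on 4 and 4 and Laptm5 on 6 and 4.

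The genes most like the group over the 6 RNAs were sought by the Pearson correlation of each gene's level with the mean centred level of the 10 genes. That mean was 0.17, -0.12 and 0.34 labelled RANK-/- and -0.06, 0.01 and -0.34 labelled RANK+/+. Of the genes outside the group the closest were the unnamed transcript of probe A_30_P01018424 (r 0.998), 4833422C13Rik (0.997), Galnt17 (0.996), Derl3 (0.993) and Ell (0.990). Among 22479 genes compared over 6 points that share arrays in pairs, 449 (2%) had r over 0.9. Of the 10 genes themselves, Scd1 (0.903), Elovl6 (0.807) and Xdh (0.719) had the highest r with the common mean and Acaca (-0.28) and Thrsp (-0.525) had an r below 0. Each gene is itself part of that mean, and genes of wide spread such as Scd1 weigh most in it.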

How the data were processed

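RNA from CD45- tumor cells was compared on 6 two-color Agilent mouse arrays. The authors extracted spots with Agilent Feature Extraction 10.7.3.1, and the deposited scanner files list median spot and background intensities before normalization, processed intensities, and a log10 ratio, which was not used here. The deposited series table holds log2 ratios normalized by the authors; its direction, not stated, was read as RANK-/- over RANK+/+ (r 0.825 to 0.858 with the scanner ratios) and served as an alternative.

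Median signals were corrected by normexp (offset 50), control (3671 of 62976) and outlier spots (212 to 260 per array) were left out, and ratios were normalized by intensity loess and Aquantile in limma 3.58.1 (R 4.3.3). Probes had to be well above background, in the channel of 1 genotype, on arrays A and B of 2 or more pairs (30216 of 55681, 54.3%). Symbols came from RefSeq by accession (28026 probes). The pair ratios were tested with limma (lmFit and eBayes, two-sided) with Benjamini-Hochberg adjustment over 22489 genes, and with a rank product by the gamma approximation, both at 0.05. Both were run on simulated pair ratios, where limma had to recover large known changes only at a spread far below the observed one. Recovery at the observed spread was not required, so this does not show the power of the tests here. The 10 genes, the lists and the naming rule were chosen with earlier results of these data known. Besides these the rule names Tnfrsf11a, the genes called in each list and its 2 of largest mean with 1 sign, markers near background, and the 5 genes most like the group. Outside it, Srebf2, Btn1a1 and the luminal and milk protein genes other than Wap were named after their values were seen. RNAs of a pair share arrays, which makes the pair the block; their deviations from the group means correlated at -0.03, -0.22 and -0.04. All 6 arrays lay on 1 slide, so slide was not tested as a batch. Dye swaps are described in the study's methods, but the labels give arrays A and B of a pair the same dyes. The number of arrays limits the precision. Alternatives changed 1 choice at a time, except that robust eBayes and a trend were set together and that the processed signals and the series table replace background correction and normalization at once.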

Additional observations from a re-analysis of the deposited data

How the results depend on the processing

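The count of the 10 genes called by limma was 0 in 18 of 19 alternatives and that by the rank product was 0 in all 16 run, including the exact count of rank combinations, an alternative chosen after seeing the data (smallest pfp 0.623). With the 6 arrays entered as separate replicates, which counts each pair more than once, limma called 1 of the 10 genes (Fasn, adjusted p 0.0274; 0.0274 to 1.00 over 19 alternatives) and 1 other listed gene (Fabp3), and 298 of all genes, against 13 with the pair as a random block. Without the replicate block, with the RNAs unpaired, limma called 0 of the 10 genes and 0 of all genes (826 at an unadjusted p under 0.05). Leaving the RNAs unpaired thus changed no call on the 10 genes, whereas entering the arrays separately added that of Fasn. Among all genes 647 had an unadjusted p under 0.05, against 1206 with no filter, 1876 without pair 2 and 0 with robust eBayes with trend, and the exact rank product called 19 against 7. The mean log2 ratios of Fasn (0.28 to 0.52), Elovl6, Srebf1, Xdh and Thrsp kept their sign in the 19 alternatives, some of which leave a mean as it is by construction. Median centring moved the median of all genes by -0.14, and there Acly was at -0.27, Scd2 at -0.34 and Plin2 at -0.26. Agilent processed signals gave Acly -0.0186 and Scd2 -0.0249, the series table Acly -0.0483, Scd2 -0.0929 and Plin2 -0.0409, arrays A only Scd2 -0.00098, and a dye term Scd2 -0.0132 and Plin2 -0.0813, each opposite to the sign reported; the cause was not tested. Leaving out 1 pair gave -0.379 to 0.0476 for Acaca, -0.0731 to 0.162 for Acly, -0.0333 to 1.494 for Scd1, -0.189 to 0.162 for Scd2 and -0.231 to 0.409 for Plin2. The median of the 10 gene means ranged from -0.05 to 0.31 and was below 0 in 2 of 19 alternatives.

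Each value rests on 3 pairs on 1 slide, and the intervals are wide: that of Scd1 (-0.98 to 2.35) includes 0 and also a difference of 2-fold or more toward the channel labelled RANK-/-. A p that missed the threshold does not show that the labelled genotypes were alike.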
